A study of Mus musculus with 3 samples.

Results

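The comparison described here is that of WT colitis with WT normal distal colon, which differ by treatment of wild-type mice with dextran sulfate sodium (DSS). Its members are the probe sets with a single gene symbol in the platform annotation, which were 21789 of the 28944 probe sets on the array and stood for 19938 genes. Each was described by its log2 signal in WT colitis minus its log2 signal in WT normal, so that a difference of 1 is a 2-fold change. All mice were BALB/c males of 10 to 12 weeks, wild type for the IL-4 receptor α subunit, and the distal colon was taken on day 7. WT normal mice drank water and WT colitis mice drank 3% DSS for the 7 days. RNA of the mice of a group was pooled and hybridised to 1 array, a pool of 4 mice for WT normal and of 3 mice for WT colitis. The remaining array of the series held pooled RNA of mice that lack the receptor subunit and had also received 3% DSS (IL-4Rα-/- colitis), and it is cited only where its value stands beside a result. With 1 array per group the differences have no replicate error, no test of expression was run, and the number of arrays limits the precision of every value.

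DSS is a sulfated polysaccharide that injures the colonic epithelium from the lumen, after which bacteria reach the lamina propria and an acute inflammation sets in. Repair of such a wound involves a provisional matrix and its proteolysis, growth factors from the mesenchyme that surrounds the crypts, and regrowth of the epithelium from crypt cells. The distal colon at rest absorbs salt, water and short-chain fatty acids, takes up phosphate and bile acids through specific carriers and is covered by mucus from goblet cells.

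The sample labels give 3 traits for each pooled mouse, and each trait was tested by a two-sided exact permutation of the mice. Body weight on day 7 was 97.6, 103.5, 101.9 and 104.0% of the initial weight in the 4 WT normal mice and 78.0, 78.9 and 83.8% in the 3 WT colitis mice. The disease activity index, a score of diarrhoea and bleeding, was 0 in all 4 WT normal mice and 4, 3 and 4 in WT colitis. Colon length was 10.7, 12.6, 12.0 and 10.5 cm in WT normal and 7.8, 8.2 and 8.0 cm in WT colitis. The groups did not overlap in any of the 3 traits. Means were 101.8 ± 2.91% (SD, n = 4) against 80.2 ± 3.12% (SD, n = 3) for weight, 0 against 3.67 ± 0.577 for the index and 11.45 ± 1.02 against 8.0 ± 0.20 cm for length. Each difference gave an exact permutation p = 0.0286, the smallest of 35 regroupings, and the same value after Benjamini-Hochberg adjustment over the 3 traits.

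**Figure D1:**
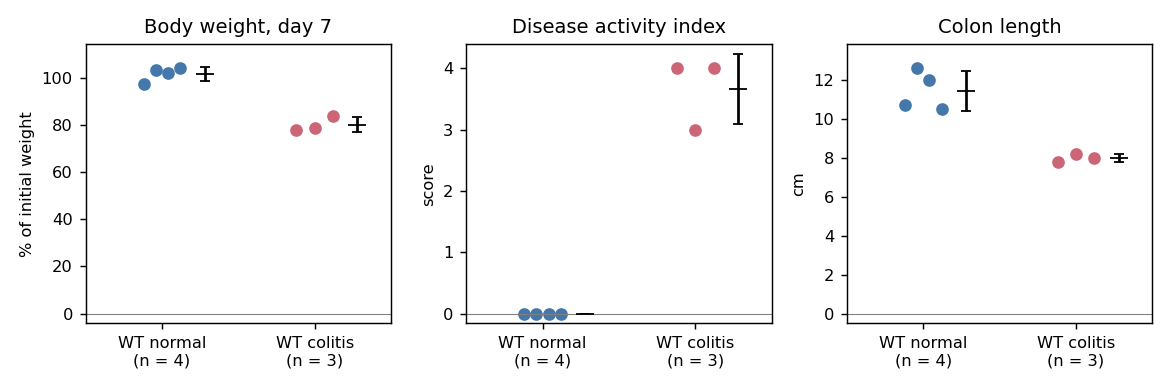
Body weight on day 7 in percent of the initial weight, disease activity index and colon length in cm for each mouse whose RNA was pooled. Points are mice, and the bar beside them is the mean with its SD. The 3 WT colitis mice lie below all 4 WT normal mice in weight and length and above them in the index.

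The array carried probe sets for olfactory and vomeronasal receptors, genes assumed here to be mostly silent in colon. The 95th percentile of their 1212 probe sets, a log2 signal of 3.5, served as the background level. Of the 19938 genes, 12592 had a signal above it on at least 1 of both arrays. Epithelial, goblet cell and muscle markers were bright in both pools, with Muc2, the gel-forming mucin, at 12.83 in WT normal and 12.88 in WT colitis. Cdh1, the epithelial cadherin, was at 10.49 in both, and Acta2, smooth muscle actin, was at 11.46 and 11.42. Alb, the liver product albumin, was at 2.89 in both, below background. A signal from whole tissue does not separate the number of cells of a type from the RNA that each cell holds, so fewer cells and less RNA per cell cannot be told apart in any result below.

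In the deposited values, more genes were higher than lower in WT colitis. A difference above 0 was seen in 7132 genes (35.8%) and below 0 in 2383 (12.0%), while 10423 were equal. Counts by sign in the lists below stand against these shares. Both depend on the scaling of the arrays. The median difference over probe sets was -0.035 after quantile normalization and -0.08 after centring on the median. The larger number above 0 did not hold under those settings. Past 2-fold more probe sets were still higher than lower, 205 against 106 and 207 against 106. Of 19938 genes, 232 (1.16%) were more than 2-fold higher and 91 (0.456%) more than 2-fold lower. Changes of more than 4-fold were few, 36 genes higher (0.181%) and 28 lower (0.140%). Of those 28, 15 were on the list of exocrine pancreas genes, which is described at the end. The bulk lay between 2- and 4-fold, with 196 genes higher (0.983%) and 63 lower (0.316%), and 175 of the 196 and 55 of the 63 had both signals at or above background. At the threshold, Bmp5, Cald1 and Igkv5-43 (difference of 1.01) were counted as higher while Nid1, Sh3yl1 and Slc43a3 (1.0) were not. On the other side Dhrs11, Egr2 and S100a14 (-1.01) were counted as lower while Acly and Cyp2f2 (-1.0) were not. Over single-symbol probe sets the counts were 248 higher (1.14%) and 94 lower (0.431%) past 2-fold, 36 (0.165%) and 28 (0.129%) past 4-fold, and 212 (0.973%) and 66 (0.303%) in between.

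The share of genes past 2-fold differed with brightness. Of the 7346 genes not above background on either array, 1 was more than 2-fold higher and 0 lower, and 74.2% had the same value on both arrays. Of the 4507 genes whose higher signal lay between 6 and 8, 125 were higher and 37 lower. Of the 1501 genes above 8, 45 were higher and 37 lower. Over the 12592 genes with a signal above background, 1.83% were higher and 0.723% lower. The shares of all genes given beside the lists below include the dim genes. They therefore set lists of bright genes further apart than genes of like brightness would. Identical values were frequent in the deposited table, in 51.9% of single-symbol probe sets, and the way they arose was not given in the sources used here. Where a gene had several probe sets above background on both arrays, their differences had a median gap of 0.09 over 689 genes, a 90th percentile of 0.45 and a gap above 1 in 7 genes, most of these genes being little changed. Among the 20 such genes past 2-fold the gap was wider, with a median of 0.48 and a largest value of 2.02 (Ighm), and in 12 of the 20 at least 1 probe set did not pass 2-fold. Calls of these genes rest on the brightest probe set.

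**Figure D2:**
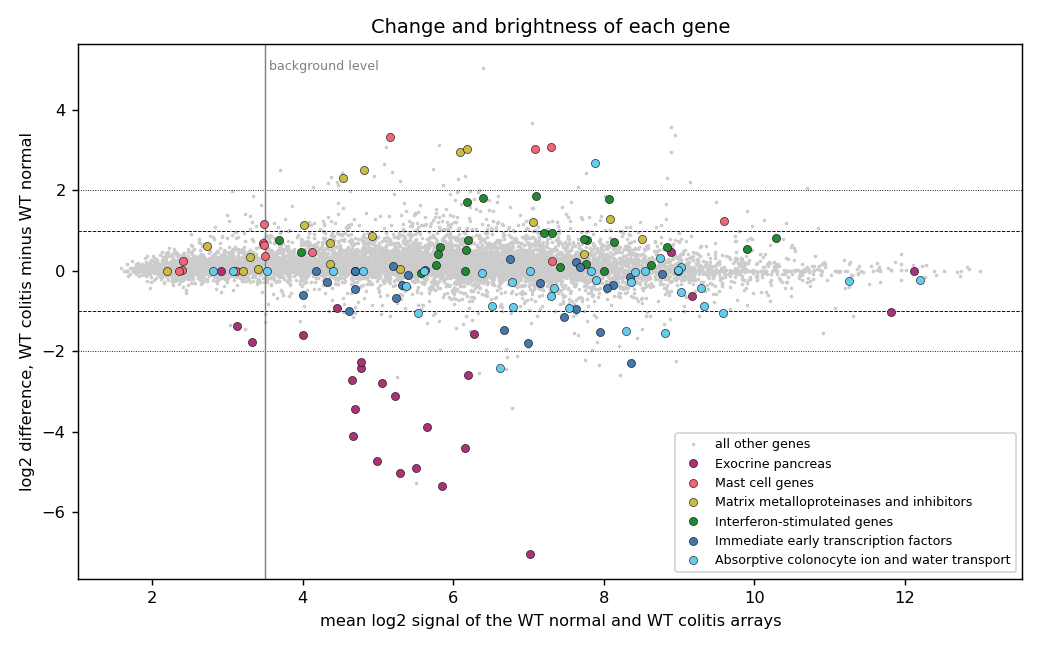
Log2 difference, WT colitis minus WT normal (vertical), against the mean log2 signal of both arrays (horizontal) for each of 19938 genes, with 6 gene lists coloured. Dashed and dotted lines mark 2-fold and 4-fold, and the vertical line marks the background level of 3.5. Mast cell and metalloproteinase genes reach above 4-fold, exocrine pancreas genes spread down to -7.06, and nearly all genes left of the background line lie between the 2-fold lines.

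The 3 largest increases, those of Lcn2, Saa3 and Serpina3n, were in genes of the acute-phase response. These proteins bind iron, lipids or bacterial products and are best known from liver, but epithelial and stromal cells make several of them. In each pair of log2 signals below, WT normal comes first. Lcn2, the siderophore-binding lipocalin, was at 3.87 and 8.91 (32.9-fold higher). Of 20 measured genes of the list, 6 (30.0%, against 1.16% of all genes) exceeded 2-fold as increases and 0 as decreases (median difference of 0.16). Lrg1, a leucine-rich glycoprotein of the acute phase, was at 4.25 and 7.37 (8.69-fold higher). Lbp, which carries lipopolysaccharide to its receptor, was at 5.33 and 7.35, and Cp, the copper-binding ferroxidase ceruloplasmin, was at 5.08 and 7.03 (3.86-fold). Hp, haptoglobin, which binds free haemoglobin, was at 3.50 and 4.63 (2.19-fold). The list was not uniform, since Saa1, another serum amyloid, was at 6.02 and 5.17, that is 1.80-fold lower, while Saa3 was at 5.20 and 8.88. Slpi, a secreted inhibitor of neutrophil elastase, was 3.78-fold higher (4.25 and 6.17), whereas Wfdc2, a relative of the same inhibitor family, was 4.41-fold lower (7.79 and 5.65).

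Cytokines that act through gp130 and their receptors included several clear increases. Gp130 is the signalling chain shared by receptors for Il6, Il11, Osm and related ligands, and Socs3 is the feedback inhibitor that this signal induces. Of 14 measured genes of this list, 3 (21.4%, against 1.16% of all genes) exceeded 2-fold as increases and 0 as decreases (median of 0.39). Il11, a cytokine of stromal cells, was at 3.24 and 5.43, at least 3.81-fold higher when the signal below background was raised to 3.5. Osmr, the oncostatin M receptor, was at 5.23 and 7.22 (3.97-fold), and Socs3 was at 5.15 and 6.48 (2.51-fold). Il6st, which encodes gp130 itself, was at 7.68 and 8.49 (1.75-fold). Il6 was at 2.06 and 2.98, below background in both pools, so no fold is given for it. The list of other cytokines held 0 of 29 measured genes past 2-fold, and 19 of those 29 were not above background in either pool.

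Chemokines were higher in small numbers. Of 32 chemokine ligand genes measured, 5 (15.6%, against 1.16% of all genes) exceeded 2-fold as increases and 0 as decreases (median of 0.24). Cxcl13, which draws B cells into lymphoid follicles, was the brightest of them, at 7.99 and 9.65 (3.16-fold). Ccl2 and Ccl7, attractants of monocytes, were at 5.10 and 6.37 and at 4.96 and 6.29 (2.41-fold and 2.51-fold). Cxcl2 and Cxcl5, which attract neutrophils, started below background, at 2.06 and 2.41, and reached 4.05 and 4.26, at least 1.46-fold and 1.69-fold higher. Cxcl10 and Ccl5, associated with T cell recruitment, were at 7.02 and 6.78 and at 6.84 and 6.71.

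Markers of immune cells differed by lineage. Of 18 measured neutrophil markers, only 9 had a signal above background. S100a8 and Mmp9, 2 of the 18 (11.1%, against 1.16% of all genes), were more than 2-fold higher. S100a8, a subunit of calprotectin, was at 2.62 and 4.27, at least 1.71-fold higher, and the granule enzymes Mpo (2.32 in both pools) and Elane (3.02 in both) were below background. The bright members were Ly6g (10.24 and 10.81), which belongs to a family of close relatives, and Cd177 (7.94 and 7.14). The paper counted MPO-positive cells by staining in the mucosa of WT colitis mice. A Mpo signal below background therefore does not show that neutrophils were few. Among 22 macrophage and monocyte markers the median was 0.23 and 2 (9.09%, against 1.16% of all genes) were higher past 2-fold. They were Gpnmb, a glycoprotein of lipid-laden macrophages, at 4.07 and 5.16, and Cd163, the haemoglobin scavenger receptor, at 3.12 and 4.22. Of 20 T and NK cell markers 0 passed 2-fold in either direction, with differences from 0.00 to 0.49. Cd3e, a chain of the T cell receptor complex, was at 5.68 and 5.85.

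B lineage and mast cell genes were further from 0. Of 19 B and plasma cell markers, all with a signal above background, the median was 0.51 and 3 (15.8%, against 1.16% of all genes) were more than 2-fold higher. Pou2af1, a coactivator of immunoglobulin genes, was at 5.54 and 7.07 (2.89-fold), Prdm1, the regulator of plasma cell fate, at 4.61 and 6.00 (2.62-fold), and Ms4a1, which encodes CD20, at 4.87 and 5.99 (2.17-fold). Among 14 immunoglobulin genes 6 (42.9%, against 1.16% of all genes) were higher past 2-fold and 0 lower. Igha, the heavy chain of IgA, was at 8.64 and 10.34 (3.25-fold) on its brightest probe set and differed by 0.80 on a second. For Ighm, the heavy chain of IgM, the brightest probe set was at 7.68 and 10.00 (a difference of 2.32) and another was at 7.52 and 7.82 (0.30), so the size of the change in Ighm is uncertain. Immunoglobulin segments are nearly identical in parts, and their probes may read each other's transcripts. Of 14 mast cell genes 5 (35.7%, against 1.16% of all genes) were higher past 2-fold and 0 lower, with a median of 0.55. Cpa3, the mast cell carboxypeptidase, was at 3.50 and 6.82, and Mcpt1 and Mcpt2, the chymases of mucosal mast cells, were at 5.57 and 8.60 and at 5.75 and 8.84. These chymases are close paralogs and may share probes. Other mast cell genes differed less, with Kit, the stem cell factor receptor, at 7.19 and 7.43, Tpsb2, a tryptase, at 3.17 and 3.81, and Cma1, the chymase of connective tissue mast cells, at 2.38 and 2.41.

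Proteolysis and remodelling of matrix made up a large group of increases. Matrix metalloproteinases cleave collagens and other matrix proteins, and Timp1 inhibits them. Of 18 measured metalloproteinases and inhibitors, 7 (38.9%) were more than 2-fold higher against 1.16% of all genes, 0 were lower and the median was 0.75. The stromelysin Mmp10 was at 4.62 and 7.57 (7.73-fold) and the collagenase Mmp13 at 4.66 and 7.70 (8.22-fold). A pair of members were already bright in WT normal, the gelatinase Mmp2 at 7.44 and 8.73 (2.44-fold) and Mmp14, the membrane-bound activator of Mmp2, at 6.46 and 7.67 (2.31-fold). The 3 ADAMTS proteases past 2-fold, which cut proteoglycans such as versican, were Adamts4 at 3.64 and 5.62 (3.94-fold), Adamts1 at 5.31 and 6.67 (2.57-fold) and Adamts9 at 4.60 and 5.74 (2.20-fold). Of the 6 probe sets of Adamts9 only that 1 passed 2-fold, and the others gave differences of 1.0, 0.91, 0.62, 0.33 and 0.69. Their substrate Vcan, versican, was at 5.19 and 6.40 (2.31-fold). Cemip, which takes part in hyaluronan breakdown, was at 3.57 and 6.65 (8.46-fold).

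Structural matrix genes differed by class. Of 44 collagen chains, 2 were more than 2-fold higher and 0 lower, and both encode basement membrane chains, Col4a1 at 5.05 and 6.22 (2.25-fold) and Col18a1 at 5.23 and 6.46 (2.35-fold). The fibrillar chains were less changed, with Col1a1 at 7.45 and 7.89 (1.36-fold) and Col3a1 at 6.83 and 7.54 (1.64-fold). All 10 laminin genes had a signal above background and their median was 0.60, with Lama4, a chain of vascular laminin, at 5.35 and 6.38 (2.04-fold). Lox, the enzyme that crosslinks collagen and elastin, was at 3.21 and 5.55, at least 4.14-fold higher. Tnc, tenascin C, a glycoprotein of healing tissue, was at 7.30 and 8.47 (2.25-fold), and Dcn, the collagen-binding proteoglycan decorin, was at 9.49 and 10.76 (2.41-fold). Against this direction Thbs4, a thrombospondin of muscle and tendon, was at 8.40 and 7.15 (2.38-fold lower).

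Growth factors of the mesenchyme and the proteins that release or block them were higher in several families. Igf1 promotes growth of epithelium and muscle, and its binding proteins hold it in the matrix until proteases such as Pappa, which cuts Igfbp4 and Igfbp5, set it free. Igf1 was at 4.99 and 6.54 (2.93-fold), Igfbp4 at 6.54 and 8.98 (5.43-fold), Igfbp5 at 7.26 and 10.63 (10.3-fold), and Pappa at 4.46 and 6.99, a difference of 2.53. Of the 12 measured genes of the family 3 were more than 2-fold higher and the median was 0.06. Hgf, the ligand of the Met receptor, was at 3.75 and 6.42, a difference of 2.67. Among 26 fibroblast growth factor ligands and receptors, a family added after the values were seen, 3 (11.5%, against 1.16% of all genes) were higher and 0 lower. Fgf7, the keratinocyte growth factor, was at 4.18 and 6.41 (4.69-fold), Fgf2 at 5.14 and 6.67 (2.89-fold), and Fgfr2, whose epithelial form is the receptor of Fgf7, at 6.69 and 7.92 (2.35-fold). Ereg, epiregulin, a ligand of the EGF receptor, was 4.23-fold higher (6.62 and 8.70), whereas Hbegf, another ligand of that receptor, was 3.73-fold lower (7.94 and 6.04).

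Some regulators of Bmp and Wnt signalling were higher as well. Both pathways set the balance between crypt stem cells and differentiated cells, with Wnt ligands and R-spondins favouring the former and Bmp ligands the latter. The median of 29 Bmp ligands, activins and secreted antagonists, also grouped after the values were seen, was 0.24. Of these, 0 were more than 2-fold lower and 5 (17.2%, against 1.16% of all genes) were higher. Antagonists and ligands were both among them. Grem1, an antagonist from subepithelial stroma, was at 7.42 and 10.37 (7.73-fold), and Chrdl2, a chordin-like antagonist, was at 4.92 and 7.21 (4.89-fold). Bmp7 was at 4.99 and 6.91 (3.78-fold), Bmp5 at 6.29 and 7.30 (2.01-fold) and Bmp4 at 7.91 and 8.79 (1.84-fold). Inhba, the activin A subunit, was at 3.47 and 4.69, at least 2.28-fold higher. Of 31 Wnt ligands and secreted modulators, likewise grouped after the values were seen, 4 (12.9%, against 1.16% of all genes) were higher and 0 lower (median of 0.00, 13 members equal on both arrays). Again the 4 act in both directions, with Rspo3, which enhances Wnt signalling, at 4.80 and 6.03 (2.35-fold), Wnt5a at 4.18 and 5.32 (2.20-fold), Sfrp1, which binds and blocks Wnt ligands, at 7.03 and 8.37 (2.53-fold) and Dkk3 at 5.38 and 6.43 (2.07-fold). The list of crypt stem and Wnt target genes also holds Grem1, Rspo3, Wnt5a, Sfrp1 and Dkk3. Of its 31 measured members those 5 were past 2-fold, all higher (16.1%, against 1.16% of all genes). Of the 31, 12 were above 0 and 13 below, with a median of 0.00. Among target genes of crypt cells, picked after their values were seen, Axin2 was at 5.15 and 4.48 (1.59-fold lower), the stem cell receptor Lgr5 at 4.01 and 3.65 and Ascl2 at 4.45 and 3.99.

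Vascular, prostaglandin and neural genes gave smaller groups. Of 24 endothelial genes, 3 (12.5%, against 1.16% of all genes) were more than 2-fold higher, 0 were lower and the median was 0.42. Vcam1, an adhesion molecule for leukocytes, was at 4.98 and 7.34 (5.13-fold) and Cdh5, the cadherin of endothelial junctions, at 5.65 and 6.71 (2.09-fold), while Pecam1 was at 5.44 and 6.12 (1.60-fold). Ptgs2, the inducible cyclooxygenase, was at 6.85 and 8.20 (2.55-fold), and Ptges, the prostaglandin E synthase that works with it, was at 5.89 and 7.02 (2.19-fold). Of 6 tachykinin genes, grouped after their values were seen, only 3 had a signal above background and all 3 were higher. Tac1, the precursor of substance P, was at 6.00 and 7.04 (2.06-fold), its receptor Tacr1 at 4.74 and 6.38 (3.12-fold) and Tacr2 at 5.80 and 6.97 (2.25-fold). The neuropeptide genes Gal, galanin, and Penk, proenkephalin, were at 5.91 and 7.15 (2.36-fold) and at 7.13 and 8.47 (2.53-fold).

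Metal- and oxidant-handling genes were divided by class. Of 31 measured antioxidant and NADPH oxidase genes, 4 exceeded 2-fold as increases and 1 as decreases (median of 0.10). These are 12.9% and 3.23%, against 1.16% and 0.456% of all genes. Mt2, a metallothionein that binds zinc and copper, was at 9.67 and 11.73 (4.17-fold) and its neighbour Mt1 at 9.30 and 10.29 (1.99-fold). The other increases were secreted or inducible enzymes, Sod3, extracellular superoxide dismutase, at 5.07 and 7.05 (3.94-fold), Gpx3, a secreted glutathione peroxidase, at 7.32 and 8.58 (2.39-fold), and Hmox1, haem oxygenase, at 4.99 and 6.14 (2.22-fold). The member that was lower was Nox1, the superoxide-producing oxidase of colonic epithelium, at 6.97 and 5.47 (2.83-fold lower). Its value in IL-4Rα-/- colitis was 8.36. Cybb, the oxidase subunit of phagocytes, was at 5.86 and 6.75 (1.85-fold higher), and Nos2, inducible nitric oxide synthase, at 3.63 and 5.31 (3.20-fold).

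**Figure D3:**
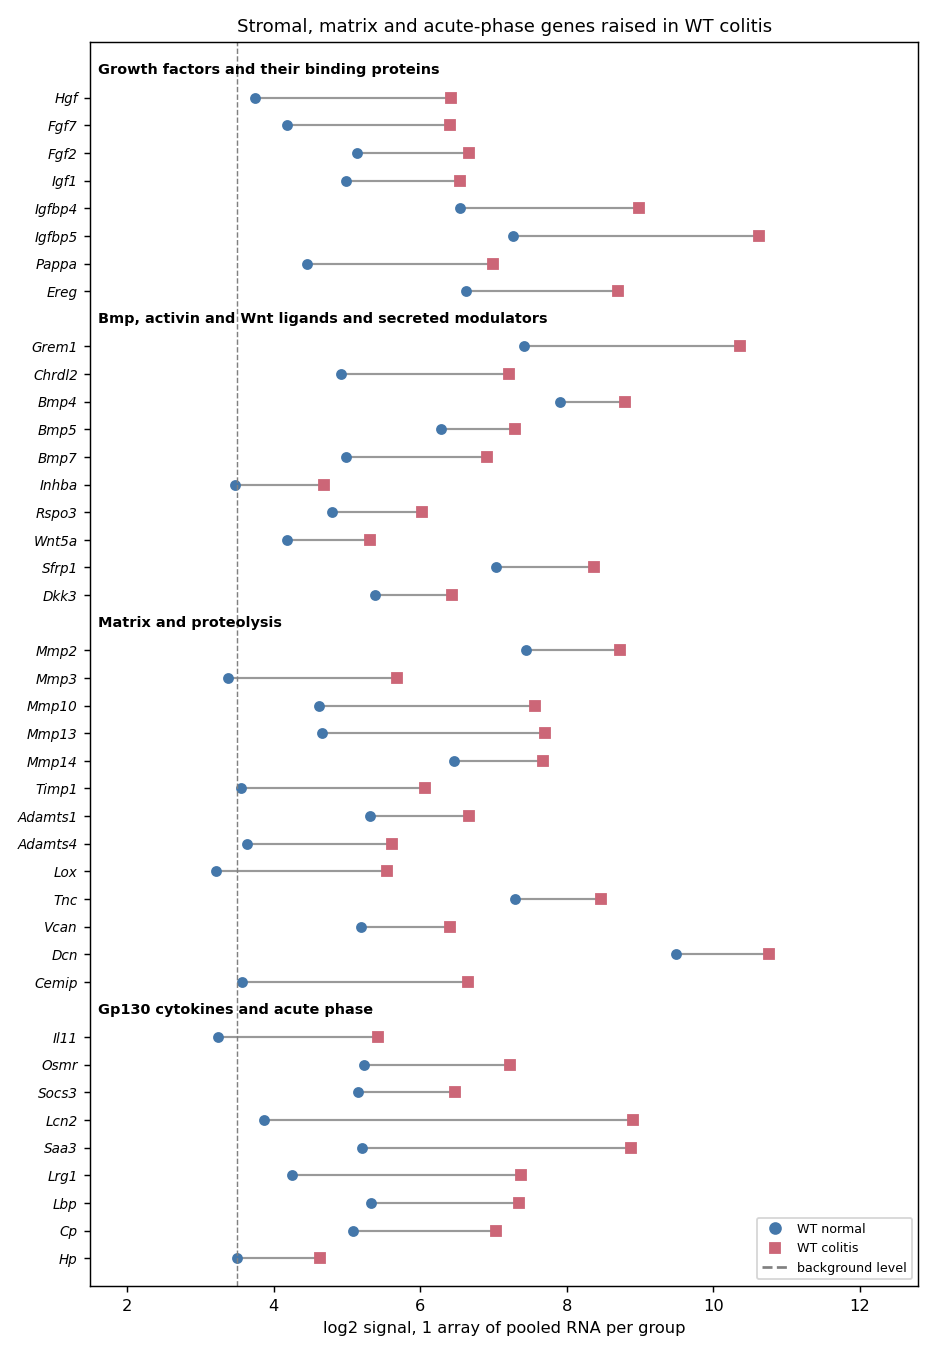
Log2 signal in WT normal (circles) and WT colitis (squares) of 40 genes for growth factors, Bmp and Wnt regulators, matrix turnover, gp130 cytokines and the acute phase, with 1 array per group and the background level of 3.5 dashed. Only genes that were higher in WT colitis are drawn, so the squares lie to the right of the circles by selection. The widest shift is that of Lcn2 (3.87 to 8.91). Members of these classes that were lower, such as Saa1 (6.02 to 5.17) and Hbegf (7.94 to 6.04), are left out. A few circles such as that of Il11 (3.24) lie below background.

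Interferon-stimulated genes showed a broad moderate shift. These genes encode antiviral and antibacterial proteins, and those of the type I response are switched on through an interferon-stimulated response element in their promoters. Of 25 measured genes, all with a signal above background, 22 were above 0, 4 were more than 2-fold higher, 0 were lower and the median was 0.60. Over all genes, 35.8% were above 0 and 1.16% more than 2-fold higher. Ido1, which degrades tryptophan, was at 6.17 and 8.03 (3.63-fold). Ifit2 and Ifit3, which bind foreign RNA, were at 5.49 and 7.31 (3.53-fold) and at 5.33 and 7.03 (3.25-fold), and Ifitm1, a membrane protein that hinders viral entry, was at 7.18 and 8.96 (3.43-fold). Most members lay below 2-fold, among them Ifit1 (6.84 and 7.78), Oas2, which makes the activator of RNase L (6.74 and 7.68), and Rsad2, viperin (5.82 and 6.58). All 8 measured interferon-induced GTPases were above 0 with a median of 0.54, and 0 passed 2-fold. The 13 genes of MHC class I and the 10 of class II, several of which respond to interferon γ, had medians of 0.11 and 0.14 and 0 past 2-fold, with H2-Aa at 9.17 and 9.32. Ifng itself was at 2.95 in both pools, below background.

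Promoters of this group were read because 22 of its 25 members were above 0, and the core of the response element, which is GAAA, 2 bases of any kind and GAAA on either strand, was searched in the 250 bases before the start of each gene. Of 17 measured interferon-stimulated genes with a promoter in the RefSeq table (GRCm38.p6), 8 (47.1%) held it, against 3.46% of 27025 genes. They were Ifit1, Ifit3, Oas1a, Oas3, Rsad2, Stat2, Bst2 and Ifitm2. The list is made of genes known to respond to interferon, so this share describes the list and says nothing on the colitis. The promoters below are shown for 1 gene above 2-fold and for a pair of genes below it, written 5′ to 3′ on the strand of the gene, with matches in capitals, for Ifit3 (chr19:34583279-34583528, plus strand), Ifit1 (chr19:34640639-34640888, plus strand) and Rsad2 (chr12:26456453-26456702, minus strand).
Ifit3: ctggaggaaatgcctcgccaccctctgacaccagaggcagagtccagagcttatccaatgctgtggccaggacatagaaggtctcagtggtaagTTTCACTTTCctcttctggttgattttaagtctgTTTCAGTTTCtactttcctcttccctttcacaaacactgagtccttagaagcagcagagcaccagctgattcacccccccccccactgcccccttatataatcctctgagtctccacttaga
Ifit1: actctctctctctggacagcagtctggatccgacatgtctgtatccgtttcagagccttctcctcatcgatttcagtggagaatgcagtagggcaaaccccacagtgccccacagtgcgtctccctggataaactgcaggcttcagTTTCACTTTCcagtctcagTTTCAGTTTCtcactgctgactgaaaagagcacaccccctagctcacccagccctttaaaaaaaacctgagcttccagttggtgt
Rsad2: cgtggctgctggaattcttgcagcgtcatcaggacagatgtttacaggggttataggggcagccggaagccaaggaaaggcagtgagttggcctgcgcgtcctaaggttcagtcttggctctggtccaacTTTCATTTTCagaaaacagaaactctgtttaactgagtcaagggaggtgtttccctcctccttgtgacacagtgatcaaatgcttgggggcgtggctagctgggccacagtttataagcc
Ifit3 and Ifit1 each held 2 matches and Rsad2 held 1, and the differences of the 3 genes were 1.70, 0.94 and 0.76. Of the 3 genes of the list that were more than 2-fold higher and had a promoter in the table, 1 held a match. With 3 genes, whether these letters go with the size of the change cannot be told. A match is a stretch of letters and was not tested as a binding site.

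Transport genes of the surface epithelium were lower in several cases. Of 34 measured genes for ion and water transport in absorptive colonocytes, 21 were below 0, 5 were more than 2-fold lower (14.7%, against 0.456% of all genes), 1 was higher and the median was -0.24. Atp12a, the colonic H+/K+ ATPase that takes up potassium, was at 7.82 and 5.41 (5.32-fold lower). Aqp8, a water channel of surface colonocytes, was at 9.59 and 8.03 (2.95-fold lower), and Slc20a1, a sodium-coupled phosphate carrier, was at 9.05 and 7.55 (2.83-fold lower). Slc26a3, the chloride/bicarbonate exchanger whose loss causes congenital chloride diarrhoea, was at 10.11 and 9.05 (2.09-fold lower), and Slc51a, part of the basolateral bile acid exporter, was at 6.06 and 5.01 (2.07-fold lower). Several further carriers lay just short of 2-fold, including the short-chain fatty acid carrier Slc5a8 (9.77 and 8.90, 1.83-fold lower), the calcium-activated potassium channel Kcnn4 (6.96 and 6.08) and the water channel Aqp4 (8.00 and 7.08). The gene above 2-fold in the opposite direction was Clca4b, a member of the calcium-activated chloride channel regulator family, at 6.54 and 9.23 (6.45-fold higher).

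Single genes of chloride secretion, picked after their values were seen, differed by unequal amounts. Kcne3, the potassium channel subunit that sustains chloride secretion in crypts, was at 9.23 and 7.79 (2.71-fold lower), and Ano1, a calcium-activated chloride channel, was at 8.16 and 7.09 (2.10-fold lower). Cftr, the cyclic AMP-activated chloride channel, was at 6.92 and 6.63 (1.22-fold lower). Of 364 genes of the Slc families 3 exceeded 2-fold as decreases and 1 as increases (0.824% and 0.275%, against 0.456% and 1.16% of all genes, median of 0.00). The gene above 2-fold there was Slc7a11, which imports cystine for glutathione synthesis, at 3.72 and 4.85 (2.19-fold).

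Genes of differentiated colonocytes included Tgm3, one of the large decreases. Of 32 measured, which include Sycn of the exocrine pancreas list, 5 exceeded 2-fold as decreases and 1 as increases (median of -0.06). These are 15.6% and 3.12%, against 0.456% and 1.16% of all genes. The list as a whole was thus centred near 0 with a tail of large decreases. Tgm3, a transglutaminase that crosslinks proteins at the mucosal surface, was at 8.48 and 5.07 (10.6-fold lower), beside 8.71 in IL-4Rα-/- colitis. Eno3, the muscle-type enolase, was at 9.11 and 6.76 (5.10-fold lower), beside 9.03 in IL-4Rα-/- colitis. S100g, a calcium-binding protein of absorptive cells that was not on the list, was at 7.61 and 5.06 (5.86-fold lower). Car3, a carbonic anhydrase that adipose tissue also makes, was at 8.83 and 6.85 (3.94-fold lower). Of 18 measured adipose genes 2, Car3 and Cdo1, were more than 2-fold lower (11.1%, against 0.456% of all genes). Lpl, lipoprotein lipase, was 3.29-fold higher (5.72 and 7.44). The summed signal of the 18 genes was 10.44 in WT normal and 10.07 in WT colitis on the log2 scale, and the defining fat cell gene Adipoq was at 3.90 and 3.32. Whether the amount of adipose tissue differed between the pools was not tested. Alpi, the intestinal alkaline phosphatase, was higher, at 5.72 and 7.23 (2.85-fold). Other pan-epithelial genes stayed close to their WT normal values, with Epcam at 10.07 and 10.16, Krt8 at 12.47 and 12.36 and Krt20, a keratin of surface cells, at 9.94 and 10.11.

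Hoxb13, a marker of the most distal colon, was the only one of 37 Hox genes past 2-fold in this comparison. It was at 7.92 and 5.47 (5.46-fold lower), and at 7.44 in IL-4Rα-/- colitis. Hoxb5 and Hoxb3 of the same B cluster were higher by less than 2-fold, at 5.46 and 6.24 and at 5.37 and 6.17. Hoxb13 marks position along the colon, and whether the tissue of both pools was cut at the same position was not given in the sources used here. Its part in the other epithelial differences was not tested.

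Goblet cell and mucin genes were close to 0 against these decreases. Of 19 measured goblet cell secreted genes, all with a signal above background, 1 was more than 2-fold higher, 0 were lower and the median was 0.02. Zg16, a lectin of the mucus layer, was at 12.12 in both pools, Tff3, the trefoil peptide of goblet cells, at 11.80 and 11.82, and Clca1 at 12.31 and 12.09. Itln1, a lectin that binds microbial sugars, was at 9.41 and 10.53 (2.17-fold higher). Of 31 mucins and glycan enzymes, 1 was past 2-fold, the transmembrane mucin Muc1, at 6.28 and 5.23 (2.07-fold lower). Sugar-chain enzymes outside that list were further from 0, with B3gnt7, which extends keratan sulfate chains, at 8.86 and 6.64, a difference of -2.22, and Nans, the sialic acid synthase, at 9.12 and 8.00 (2.17-fold lower). Of 7 Reg lectins 3 were lower past 2-fold and 1 higher (42.9% and 14.3%, against 0.456% and 1.16% of all genes), with a median of -0.16. Reg1, which the pancreas also makes and whose gene is on both lists, was at 5.91 and 3.63 (4.86-fold lower), and Reg2 was at 3.70 and 2.36, at least 1.15-fold lower. Reg3b, which kills Gram-negative bacteria, was higher (8.15 and 9.23, 2.11-fold), Reg4 of secretory cells was lower (11.69 and 10.14, 2.93-fold), and Reg3g was at 8.32 and 9.04.

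Junctional genes were nearly flat. Of 23 claudins and tight junction genes, all but 1 with a signal above background, 1 was more than 2-fold higher and the median was 0.00. The single gene was Cldn1, at 3.70 and 4.86 (2.23-fold), while Tjp1, the scaffold ZO-1, was at 7.39 and 7.58, Ocln, occludin, at 7.30 and 7.42 and Cldn7 at 9.22 and 9.01. A pair of keratins of stratified epithelium were higher from low levels, Krt5 at 3.09 and 5.17 (at least 3.18-fold) and Krt10 at 3.66 and 5.0 (2.53-fold), whereas the simple epithelial keratin Krt19 was at 11.68 and 11.36. Of the 22 measured genes of a squamous epithelium list, only 9 had a signal above background in either pool, those past 2-fold were Krt5 and Krt10, and the summed signal of the list was 8.78 and 9.21 on the log2 scale. Squamous mucosa of the anal canal lies next to the distal colon, and its part in the value of Krt5 was not tested.

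Lipid synthesis showed a small shift carried by many genes. Of 30 measured genes of sterol and fatty acid synthesis, all with a signal above background, 23 were below 0 and the median was -0.33, with 1 more than 2-fold lower and 1 higher. Over all genes, 12.0% were below 0. Fads2, a desaturase of long-chain fatty acids, was at 9.83 and 8.70 (2.19-fold lower), Acly, which supplies cytosolic acetyl-CoA, at 8.23 and 7.23 (2.0-fold lower) and Scd2, a stearoyl-CoA desaturase, at 11.53 and 10.61 (1.89-fold lower). On the sterol branch Sqle, squalene epoxidase, was at 8.25 and 7.49 (1.69-fold lower), Fdps at 8.08 and 7.34 (1.67-fold lower) and Hmgcs1 at 8.50 and 8.08 (1.34-fold lower). Me1, malic enzyme, which supplies NADPH for the pathway, was higher (5.66 and 6.68, 2.03-fold, with 0.59 on a second probe set), as was Scd1 (8.35 and 9.18, 1.78-fold). Tmem97, a sterol-responsive protein of the endoplasmic reticulum, was at 9.09 and 8.06 (2.04-fold lower), and its second probe set gave the same size of difference (-1.06). The respiratory chain shifted less, with 33 of 45 subunits below 0, a median of -0.16 and 0 past 2-fold.

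Enzymes that handle alcohols, retinoids and foreign compounds included single members with clear decreases. Adh1, which oxidises ethanol and retinol, was at 11.87 and 10.75 (2.17-fold lower), and Dhrs9, a retinol dehydrogenase, was higher, at 5.60 and 7.36 (3.39-fold). Of 35 cytochrome P450 genes on the list, 2 were more than 2-fold lower and 0 higher, Cyp2e1 at 6.58 and 3.93 (6.28-fold) and Cyp4b1 at 6.43 and 5.19 (2.36-fold). Cbr2, a carbonyl reductase, was at 6.75 and 5.33 (2.68-fold lower). Of 38 conjugating enzymes and exporters 0 passed 2-fold, and 22 were below 0 with a median of -0.07. Of 24 enteroendocrine hormones and granins, 2 were lower past 2-fold and 1 higher (8.33% and 4.17%, against 0.456% and 1.16% of all genes). In this list 15 were equal on both arrays and the median was 0.00. The lower ones were hormones of the distal colon, Insl5 at 9.13 and 7.27 (3.63-fold) and Pyy at 9.18 and 8.05 (2.19-fold), while Gcg was at 8.67 and 8.05 and the general granin Chga at 7.30 and 6.98.

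Several rapidly induced transcripts were lower in WT colitis. Immediate early genes respond within minutes to growth factors, stress or handling of tissue. Of 27 measured, all with a signal above background, 6 were more than 2-fold lower (22.2%, against 0.456% of all genes), 0 were higher and the median was -0.30. Egr1, a zinc finger factor, was at 9.50 and 7.21 (4.89-fold lower), Fos, a subunit of AP-1, at 7.89 and 6.09 (3.48-fold lower) and the nuclear receptor Nr4a1 at 8.71 and 7.18 (2.89-fold lower). Their values in IL-4Rα-/- colitis were 6.26, 5.84 and 6.17, so the WT normal pool was the highest of the 3 for each of these genes. Other members did not share the direction, with Jun at 7.52 and 7.73 and Dusp1, a phosphatase that ends MAP kinase signals, at 8.99 in both pools. Of 72 heat shock proteins and J-domain co-chaperones, grouped after the values were seen, 2 were lower and 2 higher with a median of 0.00. Each pair is 2.78% of the family, against 0.456% lower and 1.16% higher over all genes. Over genes with a signal above background the shares were 0.723% lower and 1.83% higher. By its median the family as a whole was little changed. The lower pair were the inducible chaperone Hspa1a (9.51 and 6.92, 6.02-fold lower) and its co-chaperone Dnajb1 (7.68 and 5.73, 3.86-fold lower), which were at 6.17 and 5.58 in IL-4Rα-/- colitis. Hspa1b is a near-identical copy of Hspa1a and may share its probes. Hsp90aa1 was at 9.10 and 8.35 (1.68-fold lower), and the constitutive chaperones Hspa8 (11.67 and 11.66) and Hspa5 of the endoplasmic reticulum (9.67 and 9.68) were level. The time between death and freezing of the tissue was not given in the sources used here, and its part in these genes was not tested. In the promoter windows a CArG box, the site of serum response factor, was found in 13.6% of 22 immediate early genes and 1.62% of all genes, and the heat shock unit, which is GAA, TTC and GAA each parted by 2 bases of any kind, in 5.08% of 59 chaperone genes and 0.514% of all genes. None of the 4 chaperone genes past 2-fold that had a promoter in the table held the latter. Both lists were drawn up by gene name or known function, so these shares describe the lists and say nothing on the colitis.

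**Figure D4:**
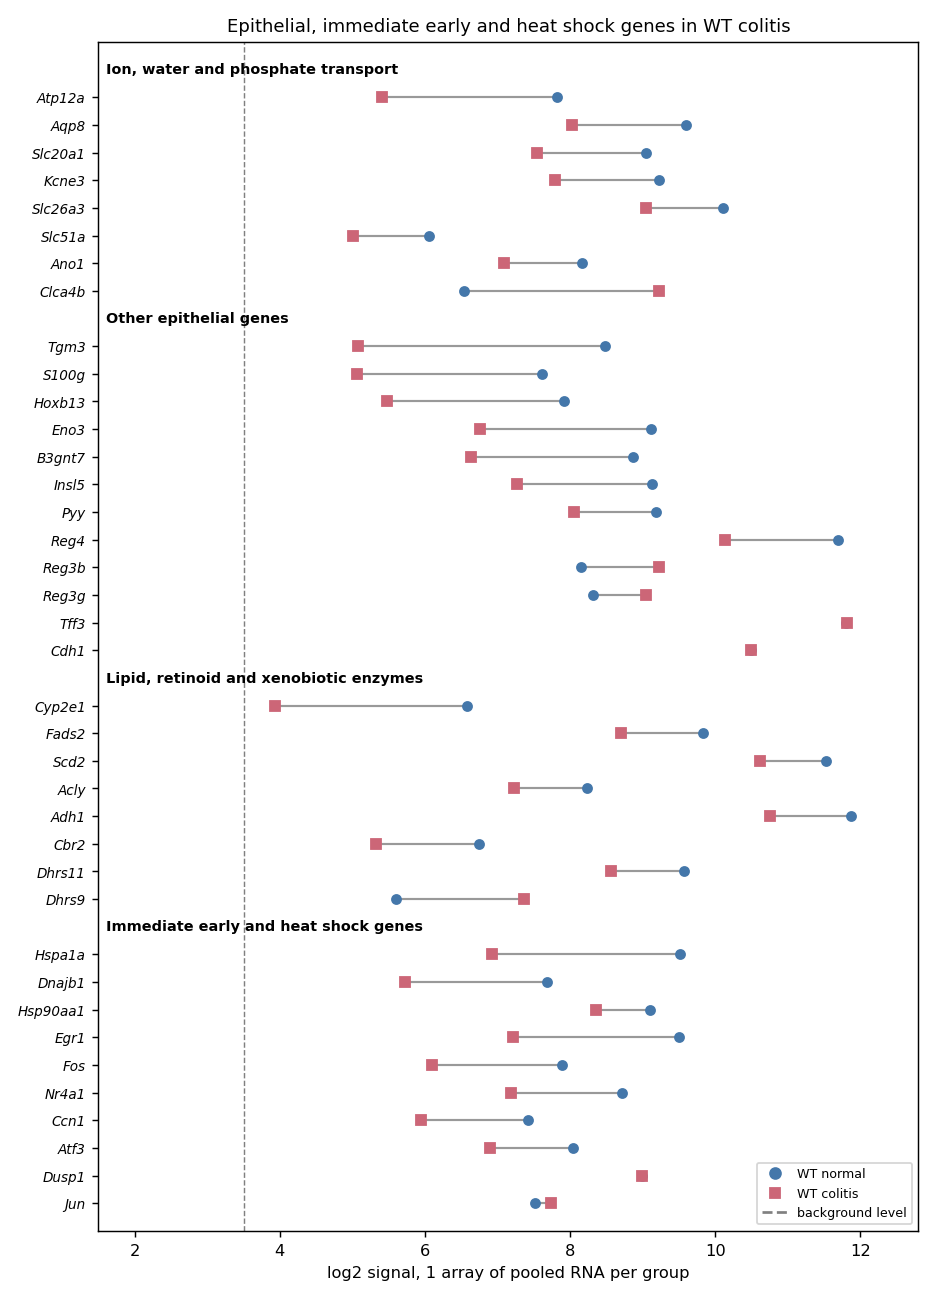
Log2 signal in WT normal (circles) and WT colitis (squares) of 38 genes of ion transport, other epithelial functions, lipid, retinoid and xenobiotic metabolism, and rapid stress responses, with the background level of 3.5 dashed. Tgm3 (8.48 to 5.07) and Hspa1a (9.51 to 6.92) show long shifts to the left, whereas Clca4b, Reg3b, Reg3g, Dhrs9 and, by little, Jun lie to the right and Cdh1, Tff3 and Dusp1 overlap.

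Bright genes between 2- and 4-fold included transcripts that belong to no inflammatory list. Malat1, a nuclear noncoding RNA, was at 9.15 and 10.65 (2.83-fold higher), and Rbm3, an RNA-binding protein induced by mild cold, was at 9.82 and 11.01 (2.28-fold), with 3 probe sets that gave 1.19, 1.21 and 1.12. Eif4a2, an RNA helicase of translation initiation, was at 8.19 and 9.32 (2.19-fold), and Sarnp, a nuclear protein of mRNA export, was at 7.58 and 8.59 (2.01-fold). Tra2a, a splicing regulator, was at 6.65 and 7.86 on its brightest probe set (2.31-fold) but gave 0.32 and 0.67 on its other probe sets. Of 74 splicing factors and Rbm proteins, a family added after the values were seen, 2 (2.70%) were past 2-fold, both higher. The median was 0.05. The share was 1.16% over all genes and 1.83% over genes with a signal above background. Of all genes whose higher signal lay between 6 and 8, 125 of 4507 were higher, a similar share. The small nucleolar RNAs Snord118 (6.72 and 8.42, 3.25-fold higher) and Snord14e (8.80 and 7.02, 3.43-fold lower) went opposite ways. Of 70 Rab GTPases, which direct vesicle traffic and were grouped after the values were seen, 3 (4.29%, against 1.16% of all genes) were higher with a median of 0.00, among them Rab5a of early endosomes (7.07 and 8.35, 2.43-fold). Adck1 (8.18 and 9.46) is another bright increase, yet its second probe set, at 3.95 on both arrays, showed none.

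Further moderate increases among bright genes lay in myeloid and stromal products. Wfdc17, a small secreted protein of activated macrophages, was at 7.09 and 8.94 (3.60-fold), Lgmn, a lysosomal endopeptidase, at 7.87 and 9.09 (2.33-fold) and Srgn, the proteoglycan of secretory granules, at 8.98 and 10.21 (2.35-fold). Xdh, xanthine dehydrogenase, was at 7.28 and 8.65 (2.58-fold). Of 19 genes of the Ms4a family, which includes receptors of B cells and macrophages and was grouped after the values were seen, 4 (21.1%, against 1.16% of all genes) were higher and 0 lower, with Ms4a6d at 4.78 and 6.19 (2.66-fold). Among bright decreases, Gsdmc4, a gasdermin of colonic epithelium, was at 9.48 and 8.28 (2.30-fold lower) and Ceacam10 at 8.38 and 6.84 (2.91-fold lower). Selenbp1, a selenium-binding protein of mature colonocytes, was at 9.46 and 8.13 (2.51-fold lower), and Phlda1 was at 9.28 and 7.61 (3.18-fold lower). Of 29 genes of glycolysis, lactate and hypoxia, 2 were higher past 2-fold and 1, Eno3, lower, with a median of 0.00. These are 6.90% and 3.45%, against 1.16% and 0.456% of all genes. The higher pair were the hypoxia-responsive genes Bnip3, at 6.28 and 7.84 (2.95-fold) but with a difference of 0.74 on its second probe set, and Egln3, at 6.93 and 8.18 (2.38-fold).

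Few genes of broad cellular machinery were past 2-fold. Of 39 cell cycle and DNA replication genes 1 was past 2-fold, Hmgb2, a chromatin protein, at 6.47 and 7.61 (2.20-fold higher), and the proliferation marker Mki67 was at 7.06 in both. None of the 22 smooth muscle genes, 55 cytosolic ribosomal proteins, 40 proteasome subunits, 45 histones or 15 housekeeping genes was past 2-fold, and the median of each group was 0.00, as over all genes. By sign, 15 of the 39 cell cycle genes were below 0 and 3 above. Of the 55 ribosomal proteins 23 were below 0 and 12 above, while 12.0% of all genes were below 0 and 35.8% above. Actb was at 12.70 and 12.67. Of 291 microRNA genes 1 was past 2-fold, Mir192, at 3.31 and 4.32, at least 1.76-fold higher. Probe sets for such genes read precursor transcripts, not mature microRNAs.

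**Figure D5:**
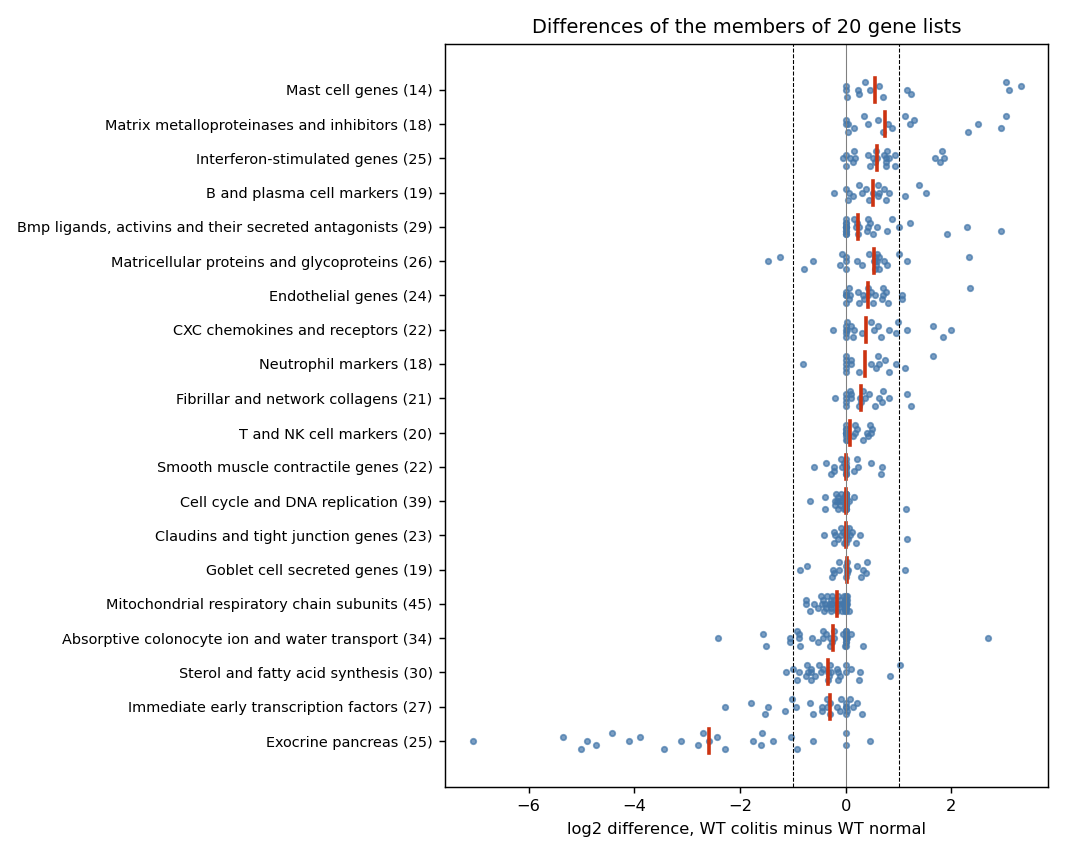
Log2 difference, WT colitis minus WT normal, of each measured member (points) of 20 gene lists, with the list's median as a red bar, the number measured in parentheses and dashed lines at 2-fold. Metalloproteinase, interferon-stimulated and mast cell genes have medians of 0.75, 0.60 and 0.55, smooth muscle and tight junction genes centre on 0, and the exocrine pancreas list is centred on -2.59.

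The largest decreases of all were those of digestive enzymes of the exocrine pancreas. Of 25 measured genes on this list, 20 (80.0%) were more than 2-fold lower, 0 were higher and the median was -2.59. Ctrb1, chymotrypsinogen, was at 10.55 and 3.49, at least 132.5-fold lower, and Cpa1, carboxypeptidase A, was at 8.53 and 3.17, at least 32.7-fold lower. The trypsinogens Prss2, Try4, Try5 and Try10 are close paralogs whose probes may read each other, so they are not independent members. The IL-4Rα-/- colitis pool was also low, with 3.03 for Ctrb1 and 3.17 for Cpa1. WT normal was thus the single pool with these proteases at high levels, and their part in the other decreases was not tested. The summed signal of the list was 13.85 and 13.01 on the log2 scale with Sycn the brightest member. The sum is therefore not a measure of the proteases alone. Pnliprp2, a pancreatic lipase-related protein, and Clps, colipase, did not follow the proteases, at 8.66 and 9.12 and at 9.48 and 8.86. Sycn, syncollin, was at 12.33 and 11.30 (2.04-fold lower), among the brightest genes of both pools. At 12.23 in IL-4Rα-/- colitis, it did not share the pattern of Ctrb1 and Cpa1. Leaving out the 20 genes of this list, 71 genes were more than 2-fold lower and 13 more than 4-fold lower. Those 13 included Tgm3, Cyp2e1, Hspa1a, S100g, Hoxb13, Atp12a, Eno3, Egr1, B3gnt7 and Wfdc2, each described above, and 2210010C04Rik, which was on no list (8.14 and 2.86, at least 24.9-fold lower). Like the listed proteases, 2210010C04Rik was high in WT normal alone, with 2.86 in IL-4Rα-/- colitis. The counts of 71 and 13 therefore leave out only the pancreas genes that were on the list. The 20 genes left out include Sycn, which was also on the colonocyte list.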

How the data were processed

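Colonic gene expression was measured on 3 arrays, and the WT normal and WT colitis arrays were compared here. The methods name the GeneChip Mouse Gene 1.0 ST, while the labelling protocol in the labels names a Cy3 kit of another maker. The deposited log2 signals of 28944 probe sets, to 2 decimals, were used as given (median 4.11 for WT normal, 4.18 for WT colitis). The methods name GeneChip Analysis Suite Software for the expression analysis and describe median-centred log2 levels for a colour scale, but no such centring is seen in the deposited values. Their own summary and normalization were not given in the sources used here, and no genome build is named for the array.

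From these values, differences were computed for the 21789 probe sets with 1 symbol. A further 1621 probe sets had several symbols and 5534 had none here. Symbols were updated through RefSeq by gene number, with 21698 matched. The brightest probe set stood for its gene. A signal below 3.5 was raised to 3.5 for folds given as at least. Counts used differences above 1 or 2, in either direction.

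Lists were 62 sets of genes and 27 families by name, and the members and lists were chosen with earlier results of these data known. A further 9 families were added after the values were seen. Named genes were the 12 largest changes in each direction, the first 3 members of each list and up to 8 of its members past 2-fold, and the 25 brightest 2- to 4-fold changes in each direction. Other genes, among them Pappa, Hgf, B3gnt7, level marker genes and members below 2-fold, were chosen after their values were seen. Alternatives were quantile normalization, centring on the median, filters on dim signals, an offset of 32, the mean of probe sets, leaving out the pancreas list and leaving out each mouse. The counting step was tested on simulated data of 21789 probe sets, where it found 200 of 200 changed ones and 0 others. The planted changes lay clear of the thresholds and the added noise was small, so this outcome was set by the simulation. It checks the counting and says nothing on how reliable the calls on the arrays are. Promoters were the 250 bases before the start in the RefSeq table. The work used Python 3.11.15, numpy 2.4.6, pandas 2.3.3, scipy 1.17.1 and matplotlib 3.10.9.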

Additional observations from a re-analysis of the deposited data

Results flagged for a closer look

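Among the 7155 probe sets without a single gene symbol, which enter no comparison above, 16 (0.224%) exceeded a 4-fold increase in WT colitis and 11 (0.154%) exceeded a 4-fold decrease, of which 3 and 9 carried several symbols. At 2-fold the counts were 59 and 24.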

How the results depend on the processing

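With an offset of 32 added on the linear scale, which pulls dim genes towards 0, the counts were 87 probe sets higher and 59 lower past 2-fold, and 13 higher and 13 lower past 4-fold, against 248, 94, 36 and 28 as deposited. Without the exocrine pancreas list, a choice made after seeing the data, 13 probe sets were more than 4-fold lower. Quantile normalization gave 205, 106, 34 and 32 and centring on the median gave 207, 106, 32 and 31, with shifts of the median of -0.035 and -0.08 on the log2 scale. Of 160 named differences past 2-fold, 0 changed sign under these settings or with the mean of the probe sets, while the offset moved 131 of 293 named differences by more than the spread of all differences that are not 0 (0.222). The number of list members more than 2-fold higher moved by over 1.5 times in 48 of 98 lists with the offset and in 17 with both signals required above background, and the number more than 2-fold lower in 9 and 1. Of 98 list medians, 11 changed sign with centring and 8 with quantile normalization, each of at most 0.075 in size, among them the insulin-like growth factor, goblet cell and splicing lists. Leaving out each mouse in turn gave differences of -23.3 to -20.4% for body weight, -3.77 to -3.07 cm for colon length and 3.5 to 4.0 for the disease activity index, each with exact permutation p = 0.0667 to 0.1, the smallest that these numbers of mice allow. No paired analysis was possible because each group had 1 array. Signals below 3.5 give only bounds, and with 1 array per group no spread between arrays could be measured.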
